A study of Bos taurus and Ovis aries and Capra hircus with 27 samples.

Results

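P-type ATPases of the goat were the subject, taken as the goat gene models whose predicted protein held the letters DKTGTLT and whose identifier had no copy suffix. Of 22131 goat models in the expression table, 18216 had a protein sequence, 31 of these held the motif, and 30 without a copy suffix were kept as members. P-type ATPases are membrane pumps that split ATP and pass its phosphate to the aspartate of this motif, which switches the protein between shapes open to either side of the membrane. Some carry ions such as sodium, potassium, calcium or protons, others carry metals, and the flippases among them move phospholipids from the outer to the cytosolic face of a membrane. Heart and kidney are textbook sites of ion pumping, since heart muscle relaxes by pumping calcium out of the cytosol and the kidney tubule recovers sodium from the filtrate.

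Messenger RNA of heart, liver and kidney was sequenced from goats of an indigenous strain about 3 years old, with 3 libraries per tissue and 9 in all, and no group carried a treatment or a genetic change. The series also held cattle and sheep libraries of the same tissues, which were not used here. The paper states that the 3 goat heart samples duplicate samples deposited under other identifiers. It does not say whether heart was handled apart from liver and kidney. Such a difference could not be told apart from tissue. The study's methods describe unrelated adult females, with several tissues taken from each animal. Values were FPKM, fragments per kilobase of transcript and scaled to the mapped fragments of the library, so levels could be compared between genes on this scale. The summed FPKM of the 9 libraries lay between 574638 and 828807, read counts were not given, and the depth of each library is unknown. The goat identifiers carried no gene names, so lists of tissue markers and of the pumps' partner proteins were not applied, and the tissue labels were not checked against markers. In tissue RNA, fewer cells of a type and less RNA per cell cannot be told apart.

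The 30 members were grouped by short runs of letters that mark subfamilies, searched in the 80 residues before the motif, and by the 2 residues after it. The letters PEGL mark the type 2 ion pumps, which were split by the residues after the motif into 3 SERCA-like members (TN), 1 SPCA-like member (KN), 2 PMCA-like members (MN) and 5 Na,K/H,K-like members (QN). SERCA pumps load calcium into the sarcoplasmic or endoplasmic reticulum, SPCA pumps load calcium and manganese into the Golgi, PMCA pumps expel calcium across the plasma membrane, and the Na,K and H,K pumps exchange sodium or protons for potassium. Another type 2 member, GOAT_ENSP00000397925, had AN after the motif and was not split further. The letters PISL or PVSL, or the residues after the motif, placed 13 members with the type 4 lipid flippases, the letters PPNLP, where N is any residue, placed 4 with type 5, and GOAT_ENSP00000311336 was left unclassed. The names describe these letters and are not the identity of a gene.

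Copper pumps, which also belong to the P-type ATPases, were not among the members. Copper pumps carry the letters CPC before the motif, and none of the 30 members did. The only model with DKTGTIT in place of DKTGTLT, GOAT_ENSP00000355170 on scaffold 19, 1937643 to 2014029 of the plus strand, therefore lay outside the rule. Its protein also held CPC, whose position was not checked. Models with neither motif were not searched for CPC.

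Members also held motifs that the rule did not use, to different extents. These motifs were searched anywhere in the protein, and their positions were not checked. The letters GDG followed by any residue and ND, part of the fold that holds the phosphorylated aspartate, occurred in 28 of 30 members and in 0.187% of all goat proteins. The letters TGES, which in ion pumps belong to the loop that removes the phosphate, occurred in 14 members and in 0.796% of all proteins. They were present in 9 of the 12 type 2 members, in 4 of 4 type 5 members and in 1 of 13 type 4 members, goat_GLEAN_10002233. The flippase form of that loop, DGET, occurred in 10 members and in 0.648% of all proteins, and 9 of the 10 were of type 4. The other was the unclassed GOAT_ENSP00000311336, whose closest member was the type 4 GOAT_ENSP00000283684 at 47.7% identity. Proteins of members had 396 to 1459 residues with a median of 1127.5, against 326 over all models, and held 2 to 11 hydrophobic stretches with a median of 7, against 0. The shortest was the SPCA-like goat_GLEAN_10008815, with 396 residues, which held neither TGES nor DGET.

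Members lay on 28 scaffolds and spanned 12.253 to 401.939 kb of genome, with a median of 53.5 kb. Scaffold 1095 held the flippase-like GOAT_ENSBTAP00000053709 and GOAT_ENSBTAP00000035589 on opposite strands, 72394 bp apart, and scaffold 435 held the type 5-like GOAT_ENSP00000341942 and GOAT_ENSBTAP00000021694, 26500 bp apart on the minus strand. The 3 SERCA-like proteins were 78.5% to 79.6% identical to their closest member and lay on 3 scaffolds.

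Levels of the members covered a wide range, shown in the map of levels by library. In 3 members the highest library exceeded 100 FPKM and in 14 it exceeded 10 FPKM, while GOAT_ENSBTAP00000035589 was listed at 0 in all 9 libraries. A level above 0.5 FPKM in at least 3 of 9 libraries was required for testing, which 21 of 30 members (70.0%) and 13634 of 22131 models (61.6%) reached. Of the 9 members that were not tested, 4 were Na,K/H,K-like, 2 were type 5-like, 2 were flippase-like and 1 was the type 2 member that was not split. GOAT_ENSBTAP00000019704 and goat_GLEAN_10005905 passed through kidney alone and therefore had to differ between tissues. The member just inside the filter was GOAT_ENSP00000311336, and the member just outside it was GOAT_ENSBTAP00000021694.

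**Figure D1:**
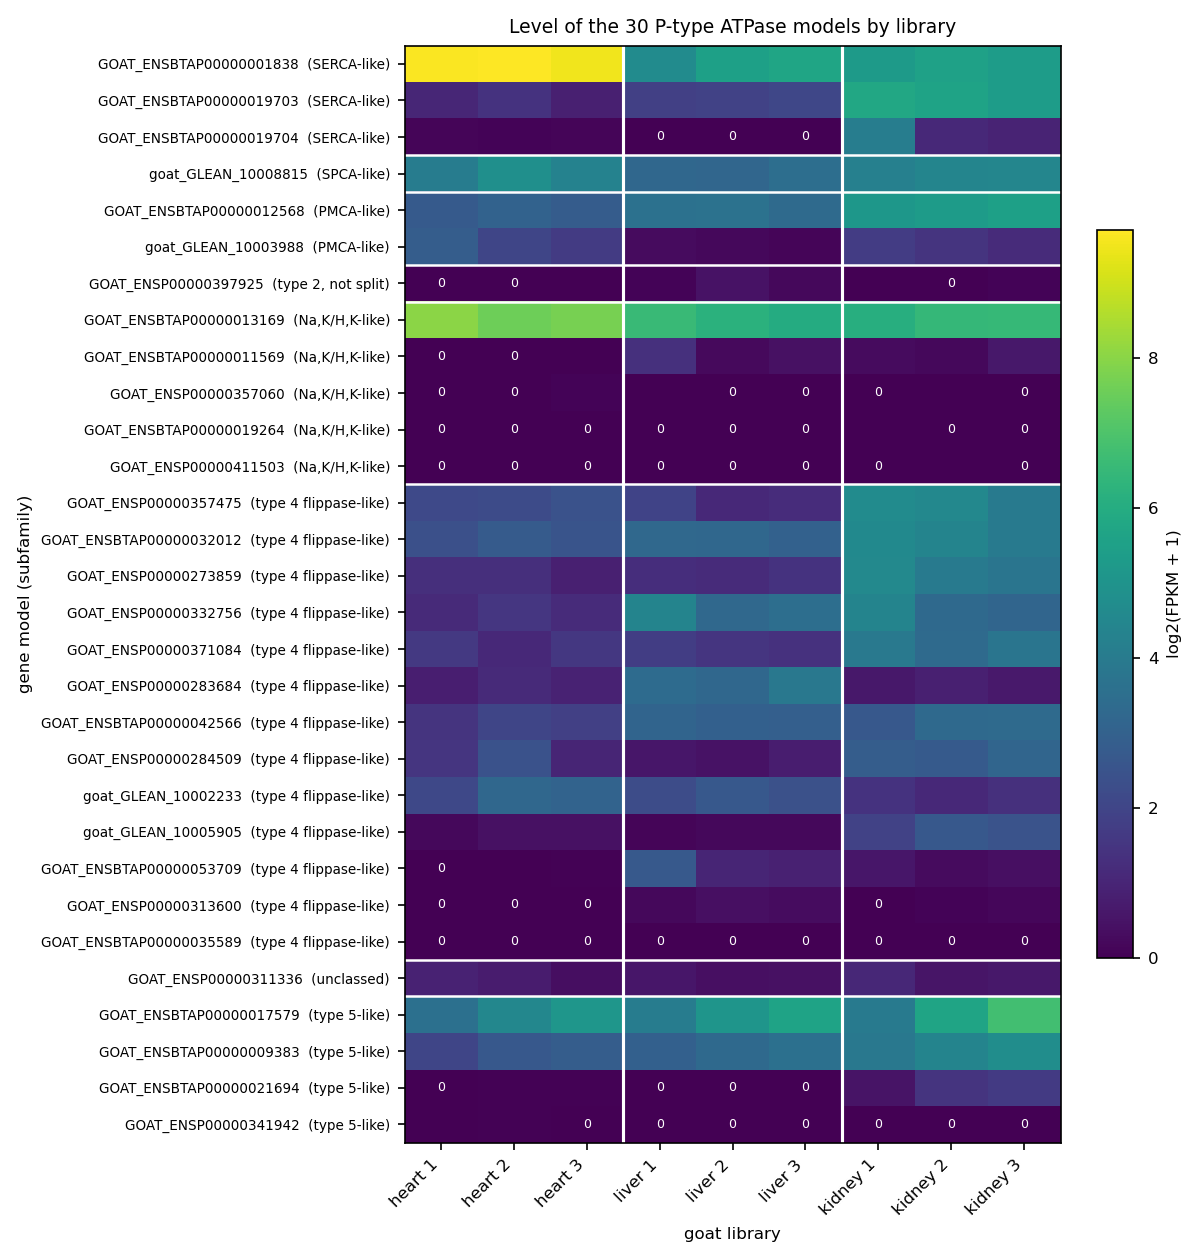
Level of each of the 30 members (rows, grouped by subfamily) in the 9 goat libraries (columns) as log2(FPKM + 1), with 0 written where a value was listed at 0. The brightest cells are GOAT_ENSBTAP00000001838 in the 3 heart libraries, at 717 to 839 FPKM.

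The summed FPKM of the 30 members was highest in heart, at 1134, 1129 and 1023 FPKM, against 230, 227 and 246 FPKM in liver and 384, 413 and 463 FPKM in kidney. The tissues did not overlap, and the means were 1095 ± 62.7, 234 ± 10.2 and 420 ± 40.1 FPKM (SD, n = 3). The heart sum was carried by the SERCA-like GOAT_ENSBTAP00000001838, which made up 70.1% to 74.3% of it. Liver and kidney had no such leader. The Na,K/H,K-like GOAT_ENSBTAP00000013169 was the highest member in the 3 liver libraries and in kidney 1 and 2, and the type 5-like GOAT_ENSBTAP00000017579 was the highest in kidney 3. The flippase-like members summed to 25.9 ± 5.83 FPKM in heart, 52.0 ± 9.74 FPKM in liver and 102 ± 17.3 FPKM in kidney. All these sums are on the deposited scale and were not rescaled. The shift of all models towards kidney depended on scaling, as given below.

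**Figure D2:**
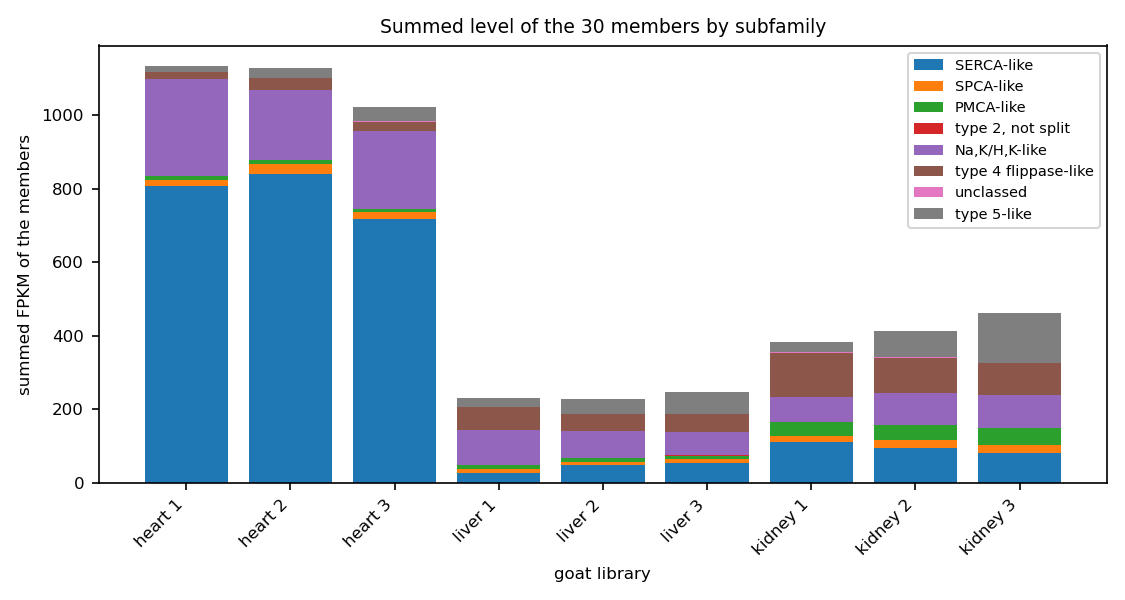
Summed FPKM of the 30 members in each goat library, stacked by subfamily, on a linear axis from 0. Heart bars reach 1023 to 1134 FPKM, mostly SERCA-like, while kidney bars reach 384 to 463 FPKM with larger flippase-like and type 5-like shares than in heart.

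The question for each pair of tissues was which pumps differed in level. Differences are of log2(FPKM + 1), fitted with limma over all 13634 models, with p-values adjusted by Benjamini and Hochberg's method over all of them and a call at 0.05. Between heart and liver 13 members were called, 6 higher in heart and 7 higher in liver. Over all models 49.2% were called, 29.6% higher in heart and 19.6% higher in liver. Between heart and kidney 16 members were called, 4 higher in heart and 12 higher in kidney, beside 63.2% of all models, 17.9% higher in heart and 45.3% higher in kidney. Between liver and kidney 15 members were called, 3 higher in liver and 12 higher in kidney, beside 65.0% of all models, 13.4% higher in liver and 51.6% higher in kidney. Median differences of the 21 tested members were -0.10, -1.34 and -1.04 in heart minus liver, heart minus kidney and liver minus kidney, and those of all tested models were 0.10, -0.55 and -0.69.

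The shift of all models towards kidney depended on scaling. With libraries scaled by the median ratio, which sets the typical gene level equal across libraries, the median differences of all models were -0.02, -0.08 and -0.06. Under that scaling 13 members were called between heart and liver, 5 higher in heart and 8 higher in liver, against 53.7% of all models, 27.3% higher in heart and 26.4% higher in liver. Between heart and kidney 16 were called, 6 higher in heart and 10 higher in kidney, against 58.0%, 27.9% and 30.2% of all models. Between liver and kidney 12 were called, 5 higher in liver and 7 higher in kidney, against 52.2%, 25.1% and 27.2%. Calls shared with the deposited scale, in the same direction, numbered 12, 14 and 10. Other settings named with single members are a block on the library number, which compares tissues within a number, equal sum scaling, which gives each library the same summed FPKM, and quantile scaling, which gives each library the same distribution of values. Equal sum scaling kept the shift of all models towards kidney, with median differences of -0.19, -0.84 and -0.64. Quantile scaling gave 0.05, -0.06 and -0.15.

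A member was higher in 1 tissue than in both others, on the deposited scale, for heart in 3 members (14.5% of all models), for liver in 2 members (9.59%) and for kidney in 10 members (34.2%), which include the 2 that passed the filter through kidney alone and had to differ. Under median ratio scaling these were 4 members for heart (19.2%), 3 for liver (14.8%) and 6 for kidney (17.6%). The heart members on both scales were the SERCA-like GOAT_ENSBTAP00000001838, the Na,K/H,K-like GOAT_ENSBTAP00000013169 and the PMCA-like goat_GLEAN_10003988, whose lead over kidney was not called under several other settings given with its values. The liver members on both scales were the flippase-like GOAT_ENSP00000283684 and GOAT_ENSBTAP00000053709. The latter exceeded 0.5 FPKM only in the liver libraries and in kidney 1, at 0.506 FPKM, so it passed the filter mainly through liver. Kidney members on both scales were the SERCA-like GOAT_ENSBTAP00000019703, the PMCA-like GOAT_ENSBTAP00000012568 and the flippase-like GOAT_ENSP00000273859, GOAT_ENSP00000357475, GOAT_ENSP00000371084 and goat_GLEAN_10005905, the last of which passed through kidney alone.

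**Figure D3:**
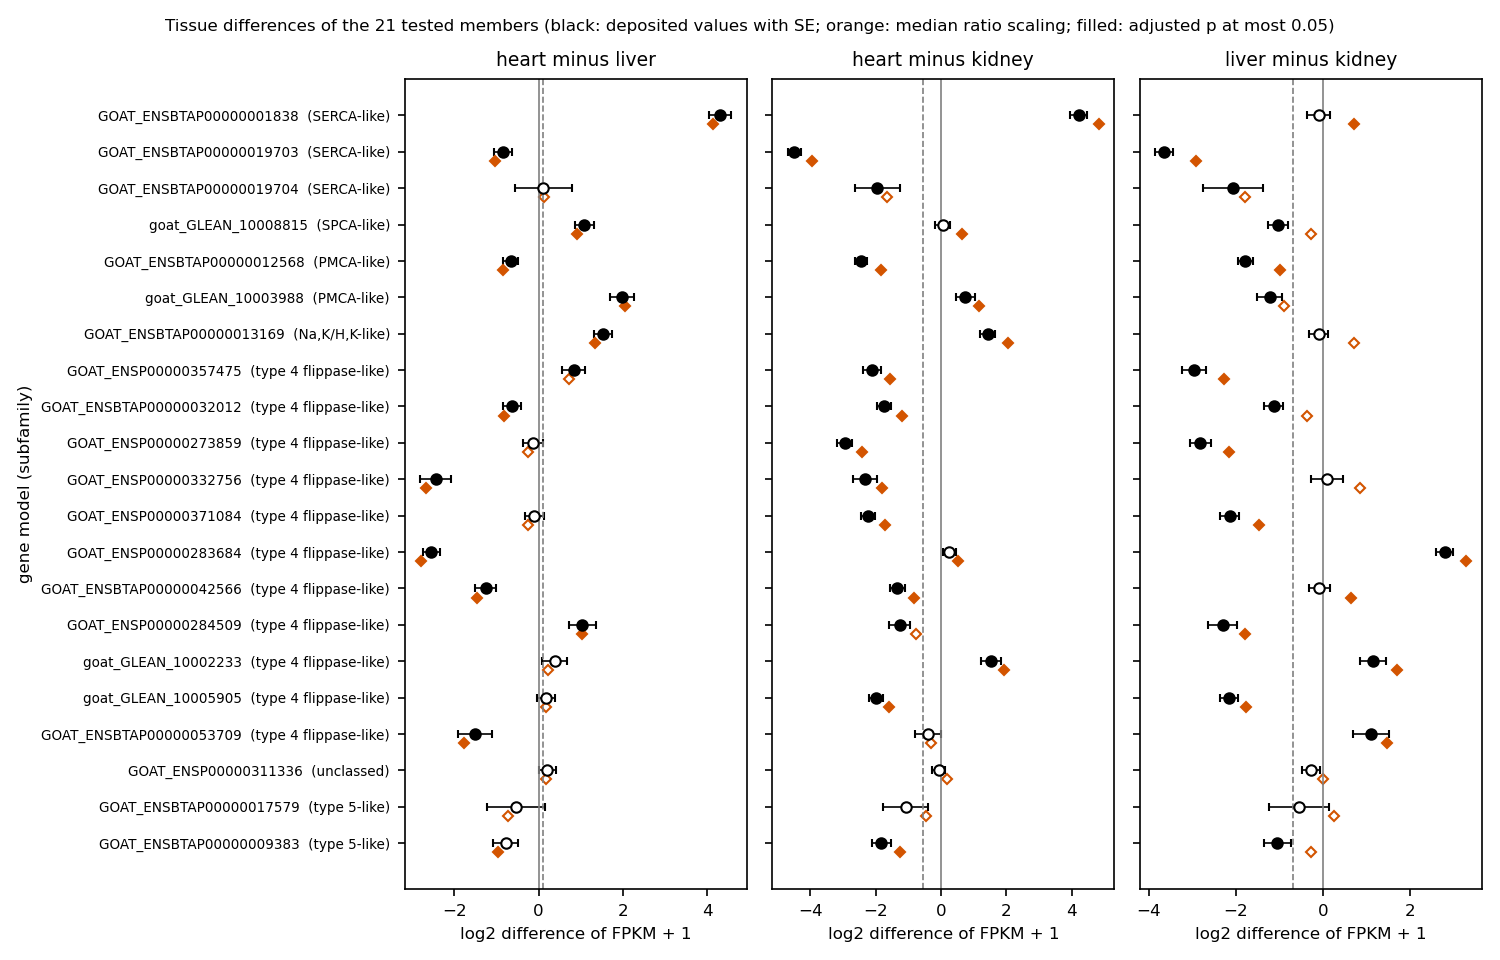
Log2 differences of FPKM + 1 between tissues for the 21 tested members, with black circles for the deposited scale (bars are standard errors), orange diamonds for median ratio scaling, filled symbols for an adjusted p of at most 0.05, and dashed lines at the median of all tested models. Kidney contrasts lie mostly left of 0, while GOAT_ENSBTAP00000001838 reaches 4.31 and 4.21 towards heart and GOAT_ENSBTAP00000019703 reaches -4.49 towards kidney.

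Among the calcium pumps, the 3 SERCA-like members had unlike tissue patterns. GOAT_ENSBTAP00000001838, on scaffold 327 at 1909638 to 1961404 of the minus strand, had 807, 839 and 717 FPKM in heart, 25, 45.5 and 50.9 FPKM in liver, and 38.6, 45.7 and 40.3 FPKM in kidney. Heart lay far above both other tissues, which overlapped each other. Its heart mean was 19.5-fold that of liver, a log2 difference of 4.31 ± 0.26 (SE, adjusted p = 8.85e-07), and 19-fold that of kidney, a log2 difference of 4.21 ± 0.26 (adjusted p = 1.32e-06). Liver and kidney differed by -0.09 (adjusted p = 0.770), and by 0.71 (adjusted p = 0.0160) under median ratio scaling, so the order of these tissues was not fixed.

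GOAT_ENSBTAP00000019703, on scaffold 1377 at 1863837 to 1886299 of the plus strand, had its high values in kidney. It had 1.09, 1.67 and 0.799 FPKM in heart, 2.62, 2.78 and 3.20 FPKM in liver, and 55.1, 48.2 and 40.1 FPKM in kidney. The 3 tissues did not overlap. The kidney mean was 40.3-fold that of heart (heart minus kidney -4.49 ± 0.21, adjusted p = 2.37e-07) and 16.7-fold that of liver (liver minus kidney -3.65 ± 0.21, adjusted p = 7.67e-07), and liver exceeded heart with a log2 difference of -0.84 ± 0.21 (adjusted p = 0.00766). In kidney its mean of 47.8 ± 7.51 FPKM stood beside 41.5 ± 3.70 FPKM of GOAT_ENSBTAP00000001838, whereas in heart it had 1.18 ± 0.442 against 788 ± 63.0 FPKM.

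The last SERCA-like member, GOAT_ENSBTAP00000019704, was low outside 1 kidney library. It had 0.097, 0.067 and 0.088 FPKM in heart, was listed at 0 in the 3 liver libraries, and had 16.2, 1.17 and 0.965 FPKM in kidney. Kidney 1 stood apart from kidney 2 and 3, while every kidney value exceeded every heart and liver value. The model passed the filter through kidney alone and therefore had to differ, so its p-values do not test the direction independently. The differences, -1.95 ± 0.68 against heart (adjusted p = 0.0309) and -2.06 ± 0.68 against liver (adjusted p = 0.0237), were not called under median ratio scaling (adjusted p = 0.0649 and 0.0546), and were called with median ratio scaling and the library number as a block (adjusted p = 0.0494 and 0.0409). Leaving out heart 1, 2 or 3 raised the former p to between 0.0664 and 0.0704, leaving out liver 1, 2 or 3 raised the latter to between 0.0515 and 0.0556, and without any kidney library the model missed the filter.

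The SPCA-like goat_GLEAN_10008815 had 15.8, 27.4 and 19 FPKM in heart, 8.54, 8.22 and 10.4 FPKM in liver, and 17.6, 20.2 and 20.9 FPKM in kidney. Liver was the lowest without overlap, and heart and kidney overlapped. Heart exceeded liver by a log2 difference of 1.08 ± 0.22 (adjusted p = 0.00287). Kidney exceeded liver on the deposited scale, at -1.03 ± 0.22 (adjusted p = 0.00278), but the difference was -0.26 (adjusted p = 0.231) under median ratio scaling. Heart minus kidney was 0.05 ± 0.22 (adjusted p = 0.868), and 0.65 (adjusted p = 0.0102) under median ratio scaling.

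The 2 PMCA-like members, 61.5% identical over 340 aligned residues, had unlike tissue patterns. GOAT_ENSBTAP00000012568 had 5.79, 7.29 and 6.15 FPKM in heart, 11.2, 11.5 and 9.37 FPKM in liver, and 34.7, 38.9 and 44.4 FPKM in kidney. No tissues overlapped, and the kidney mean was 6.14-fold that of heart (-2.44 ± 0.18, adjusted p = 3.80e-06) and 3.68-fold that of liver (-1.78 ± 0.18, adjusted p = 3.06e-05). Under median ratio scaling the kidney lead over liver was smaller, at -0.99 (adjusted p = 0.00268). Liver exceeded heart at -0.66 ± 0.18 (adjusted p = 0.0128), with an adjusted p of 0.0506 without liver 2.

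The other PMCA-like member, goat_GLEAN_10003988, had 6.38, 3.08 and 2.21 FPKM in heart, 0.234, 0.159 and 0.109 FPKM in liver, and 2.30, 1.72 and 1.26 FPKM in kidney. Liver was lowest without overlap, and heart 3 lay within the range of kidney. Heart exceeded liver by 1.98 ± 0.29 (adjusted p = 3.75e-04) and kidney exceeded liver at -1.23 ± 0.29 (adjusted p = 0.00473), which was not called under median ratio scaling (adjusted p = 0.0588) unless the block was added (adjusted p = 0.0157). The lead of heart over kidney, 0.75 ± 0.29 (adjusted p = 0.0458), was 0.41 (adjusted p = 0.141) without heart 1. It was also not called without heart 2, liver 1, liver 2, liver 3, kidney 2 or kidney 3, at 0.62 to 0.83, under equal sum scaling (0.47, adjusted p = 0.158), with a pseudocount of 0.1 (adjusted p = 0.0654) or without the filter on low values (adjusted p = 0.0613). It was 1.16 (adjusted p = 0.0183) under median ratio scaling and 1.36 (adjusted p = 0.00682) under quantile scaling.

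**Figure D4:**
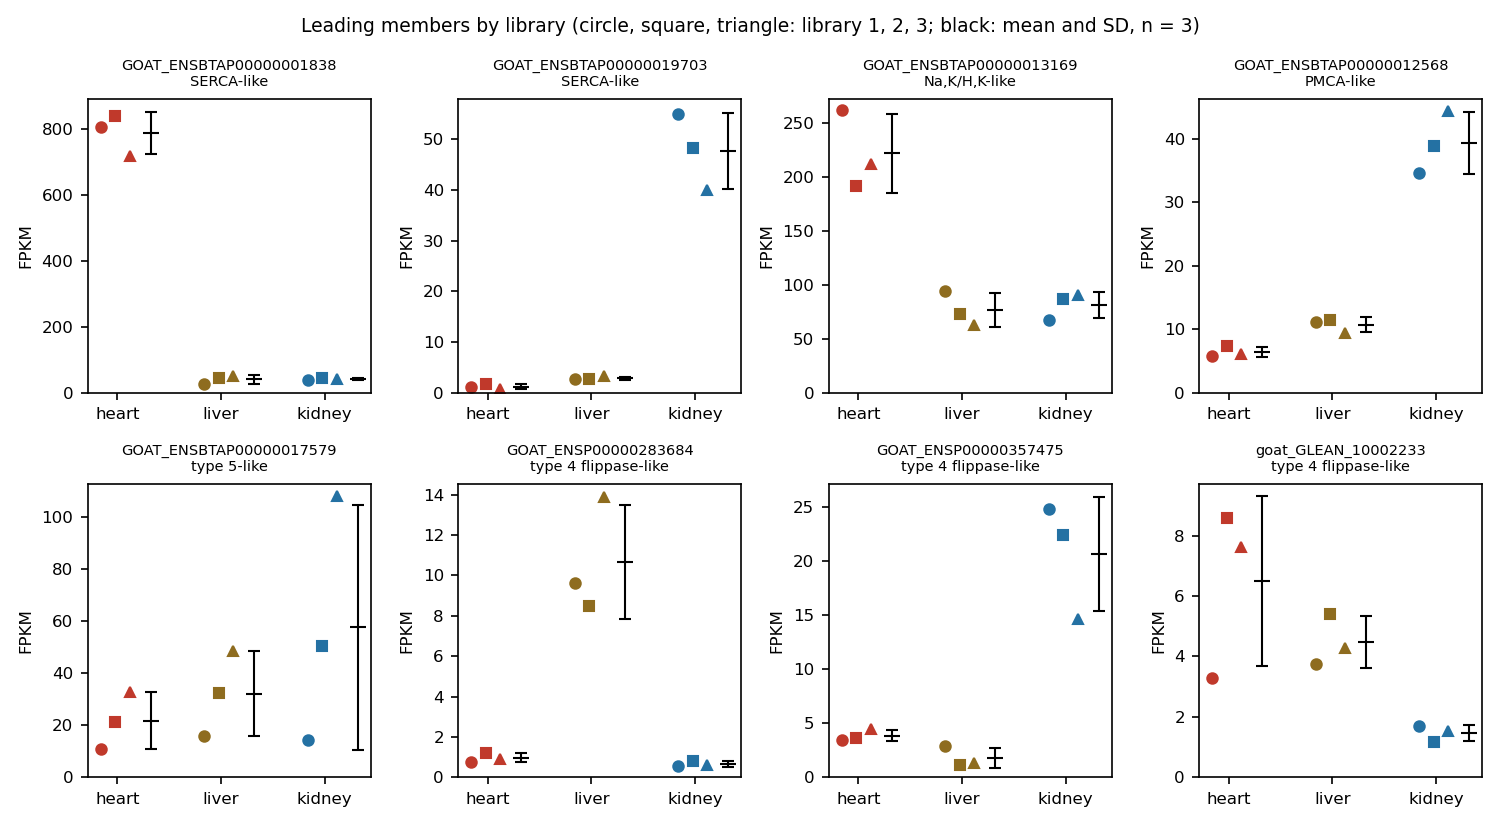
FPKM of 8 members by tissue on linear axes from 0, with a circle, square and triangle for libraries 1, 2 and 3 and the mean with its SD (n = 3) in black at the right of each tissue. GOAT_ENSBTAP00000001838 and GOAT_ENSBTAP00000013169 are highest in heart, GOAT_ENSP00000283684 in liver, GOAT_ENSBTAP00000019703, GOAT_ENSBTAP00000012568 and GOAT_ENSP00000357475 in kidney, and GOAT_ENSBTAP00000017579 is lowest in library 1 and highest in library 3 of each tissue.

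Among the 5 Na,K/H,K-like members, a single model carried nearly all of the level. GOAT_ENSBTAP00000013169, on scaffold 659 at 4083437 to 4104427 of the minus strand, had 263, 191 and 212 FPKM in heart, 94.4, 73.1 and 62.7 FPKM in liver, and 67.7, 86.8 and 90.4 FPKM in kidney. Heart did not overlap with the others, and liver and kidney did overlap. Its heart mean was 2.89-fold that of liver (1.53 ± 0.22, adjusted p = 3.66e-04) and 2.72-fold that of kidney (1.43 ± 0.22, adjusted p = 4.44e-04). Liver minus kidney was -0.10 ± 0.22 (adjusted p = 0.720), and 0.72 under median ratio scaling, with an adjusted p of 0.0636 without the block and 0.0390 with it.

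The other Na,K/H,K-like members were low in these tissues. GOAT_ENSBTAP00000011569 had 0, 0 and 0.023 FPKM in heart, 1.58, 0.183 and 0.362 FPKM in liver, and 0.206, 0.147 and 0.546 FPKM in kidney, and was not tested. GOAT_ENSP00000357060, GOAT_ENSBTAP00000019264 and GOAT_ENSP00000411503 did not exceed 0.062 FPKM and were listed at 0 in 6, 8 and 8 of 9 libraries. GOAT_ENSP00000411503 was 87.4% identical to GOAT_ENSBTAP00000013169, close enough that reads could be shared at conserved stretches, so its level is uncertain. The type 2 member that was not split, GOAT_ENSP00000397925, did not exceed 0.380 FPKM.

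Of the 13 flippase-like members, 11 were tested. Against heart 8 were called higher in kidney and 1 higher in heart, beside 45.3% and 17.9% of all models. Under median ratio scaling these were 7 and 2, beside 30.2% and 27.9%. Against liver 6 were called higher in kidney and 3 higher in liver, beside 51.6% and 13.4% of all models. Under median ratio scaling these were 5 and 4, beside 27.2% and 25.1%. Between heart and liver 2 were called higher in heart and 5 higher in liver, beside 29.6% and 19.6% of all models. Under median ratio scaling these were 1 and 5, beside 27.3% and 26.4%. The kidney counts on both scales include goat_GLEAN_10005905, which passed the filter through kidney alone and had to differ. The liver counts on both scales include GOAT_ENSBTAP00000053709, which passed mainly through liver. Flippases keep phosphatidylserine and related lipids on the cytosolic side of plasma, Golgi and endosome membranes.

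The clearest liver member was GOAT_ENSP00000283684, on scaffold 172 at 107231 to 160022 of the minus strand. It had 0.770, 1.23 and 0.925 FPKM in heart, 9.63, 8.51 and 13.9 FPKM in liver, and 0.545, 0.807 and 0.604 FPKM in kidney. Liver lay above both others without overlap. The liver mean was 10.9-fold that of heart (-2.54 ± 0.20, adjusted p = 6.47e-06) and 16.4-fold that of kidney (2.80 ± 0.20, adjusted p = 3.82e-06). Heart minus kidney was 0.25 ± 0.20 (adjusted p = 0.301), and 0.51 (adjusted p = 0.0250) under median ratio scaling.

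GOAT_ENSBTAP00000053709 was also higher in liver, with less even libraries. It had 0, 0.018 and 0.037 FPKM in heart, 5.52, 1.00 and 0.844 FPKM in liver, and 0.506, 0.219 and 0.309 FPKM in kidney. The tissues did not overlap, but liver 1 stood apart from liver 2 and 3. Outside liver the model exceeded 0.5 FPKM only in kidney 1. It thus passed the filter mainly through liver, and its p-values do not test the direction independently. Heart minus liver was -1.50 ± 0.41 (adjusted p = 0.0129), and -0.92 (adjusted p = 0.00185) without liver 1. Liver minus kidney was 1.11 ± 0.41 (adjusted p = 0.0379) and 0.52 (adjusted p = 0.0225) without liver 1, and was not called without heart 1, 2 or 3 or kidney 1, 2 or 3, with values of 1.04 to 1.19 and an adjusted p of up to 0.0988, or without the filter on low values (adjusted p = 0.0528). The closest member, GOAT_ENSP00000371084 at 66.0% identity, was a kidney member, and the neighbour GOAT_ENSBTAP00000035589 at 64.9% identity was the model listed at 0 throughout.

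A pair of flippase-like members was lower in heart than in liver and kidney, which overlapped. GOAT_ENSP00000332756 had 1.23, 1.90 and 1.28 FPKM in heart, 19.9, 8.78 and 10.3 FPKM in liver, and 19.6, 9.08 and 8.05 FPKM in kidney. Library 1 was the highest in both liver and kidney, and heart was below both without overlap (-2.43 ± 0.37 against liver, adjusted p = 4.74e-04, and -2.33 ± 0.37 against kidney, adjusted p = 4.95e-04). GOAT_ENSBTAP00000042566, 61.9% identical to it, had 1.75, 3.09 and 2.57 FPKM in heart, 7.85, 6.97 and 6.75 FPKM in liver, and 5.30, 9.04 and 9.25 FPKM in kidney. Heart was again the lowest, at -1.26 ± 0.24 against liver (adjusted p = 0.00193) and -1.34 ± 0.24 against kidney (adjusted p = 0.00103), the latter -0.81 (adjusted p = 0.0117) under median ratio scaling. Liver minus kidney of GOAT_ENSBTAP00000042566 was -0.08 (adjusted p = 0.783) on the deposited scale and 0.65 (adjusted p = 0.0348) under median ratio scaling. For GOAT_ENSP00000332756 it was 0.10 ± 0.37 (adjusted p = 0.828), and 0.86 under median ratio scaling, with an adjusted p of 0.138 without the block and 0.0477 with it.

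Liver minus kidney was furthest towards kidney, among flippase-like members and on the deposited scale, in GOAT_ENSP00000357475 and GOAT_ENSP00000273859. GOAT_ENSP00000357475 had 3.46, 3.67 and 4.44 FPKM in heart, 2.89, 1.18 and 1.35 FPKM in liver, and 24.7, 22.4 and 14.7 FPKM in kidney. Kidney exceeded both others without overlap, at -2.96 ± 0.27 against liver (adjusted p = 1.81e-05) and -2.13 ± 0.27 against heart (adjusted p = 1.42e-04). Its lead of heart over liver, 0.84 ± 0.27 (adjusted p = 0.0300), was 0.72 under median ratio scaling, with an adjusted p of 0.0992 without the block and 0.0438 with it. It was 0.50 (adjusted p = 0.157) under equal sum and 0.78 (adjusted p = 0.0807) under quantile scaling, and was not called without heart 1, heart 2, heart 3, liver 2 or liver 3, at 0.68 to 0.90 and an adjusted p of up to 0.110. GOAT_ENSP00000273859 had 1.51, 1.48 and 0.790 FPKM in heart, 1.42, 1.28 and 1.66 FPKM in liver, and 22.6, 15 and 12.8 FPKM in kidney. Heart and liver overlapped, and the kidney mean was 13.3-fold that of heart (-2.95 ± 0.24, adjusted p = 6.95e-06) and 11.5-fold that of liver (-2.82 ± 0.24, adjusted p = 9.61e-06).

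GOAT_ENSP00000284509, the closest relative of GOAT_ENSP00000357475 at 70.8% identity, had 1.85, 4.44 and 1.02 FPKM in heart, 0.494, 0.397 and 0.729 FPKM in liver, and 6.21, 5.69 and 8.05 FPKM in kidney. Kidney was highest and liver lowest without overlap, the order also seen in its relative. Liver minus kidney was -2.31 ± 0.33 (adjusted p = 2.47e-04). Heart minus kidney was -1.27 ± 0.33 (adjusted p = 0.00742) -0.76 (adjusted p = 0.0752) under median ratio scaling and -0.56 (adjusted p = 0.171) under quantile scaling. Heart minus liver was 1.04 ± 0.33 (adjusted p = 0.0248), 0.64 (adjusted p = 0.0611) without heart 2, and was not called without liver 1 or liver 2, at 1.02 (adjusted p = 0.0553) and 0.97 (adjusted p = 0.0757), or under equal sum scaling, at 0.80 (adjusted p = 0.0661).

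GOAT_ENSBTAP00000032012 had 4.12, 5.92 and 4.70 FPKM in heart, 8.82, 8.39 and 7.14 FPKM in liver, and 23.1, 19.9 and 14.6 FPKM in kidney. The tissues did not overlap, with kidney above heart at -1.76 ± 0.22 (adjusted p = 1.02e-04). Kidney exceeded liver at -1.13 ± 0.22 (adjusted p = 0.00146), but the difference was -0.36 (adjusted p = 0.267) under median ratio scaling. Liver exceeded heart at -0.63 ± 0.22 (adjusted p = 0.0353), which was not called without heart 1, heart 3, liver 1, liver 2 or kidney 2, at -0.63 to -0.53 and an adjusted p of up to 0.113, or under quantile scaling (adjusted p = 0.0791). Under equal sum scaling it was -1.03 (adjusted p = 0.00279).

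The only flippase-like member called higher in heart than in kidney on the deposited scale was goat_GLEAN_10002233, which also was the type 4 member with TGES and only 27.1% identical to its closest member. Its protein had 855 residues and 2 hydrophobic stretches, and lacked GDG followed by any residue and ND. The model had 3.28, 8.57 and 7.63 FPKM in heart, 3.75, 5.41 and 4.28 FPKM in liver, and 1.69, 1.17 and 1.53 FPKM in kidney. Kidney was the lowest without overlap, at 1.53 ± 0.30 against heart (adjusted p = 0.00167) and 1.15 ± 0.30 against liver (adjusted p = 0.00764). Heart and liver overlapped. Of the remaining flippase-like members, GOAT_ENSP00000371084 and goat_GLEAN_10005905 were higher in kidney than in both others, at 9.24 to 14.1 and 2.73 to 5.40 FPKM in kidney, and GOAT_ENSP00000313600 did not exceed 0.314 FPKM.

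The type 5-like members, a group known for polyamine export from lysosomes and for clearing misplaced proteins from the endoplasmic reticulum, had the same order of libraries in each tissue in both tested members. The factors by which median ratio scaling divides libraries 1, 2 and 3 also rose in heart (0.778, 0.944 and 0.948) and liver (0.656, 0.762 and 0.931). In kidney the factors were 1.24, 1.47 and 1.44. How many of all models had this order was not counted. GOAT_ENSBTAP00000017579 had 11, 21.3 and 32.9 FPKM in heart, 15.7, 32.3 and 48.4 FPKM in liver, and 14.5, 50.4 and 108 FPKM in kidney. Number 1 was the lowest and number 3 the highest in each tissue, and the tissues overlapped. Heart minus kidney was -1.09 ± 0.70 (adjusted p = 0.200). With the library number as a block the adjusted p was 0.00604, but with median ratio scaling and the block it was 0.178. Leaving out 1 library moved the difference between -1.84 without kidney 1 (adjusted p = 0.0209) and -0.44 without kidney 3 (adjusted p = 0.596).

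GOAT_ENSBTAP00000009383 had the same order of numbers, with 3.07, 5.45 and 6.24 FPKM in heart, 6.98, 8.91 and 11.2 FPKM in liver, and 13.9, 19.8 and 26.1 FPKM in kidney. The tissues did not overlap. Kidney exceeded heart at -1.82 ± 0.30 (adjusted p = 6.04e-04), and exceeded liver at -1.04 ± 0.30 (adjusted p = 0.0124) on the deposited scale, against -0.27 (adjusted p = 0.320) under median ratio scaling. Heart minus liver was -0.78 ± 0.30 (adjusted p = 0.0557), and was called with the block (adjusted p = 0.00293), under median ratio scaling (adjusted p = 0.00477) and without liver 1 (-0.93, adjusted p = 0.0429), kidney 1 (adjusted p = 0.0400) or kidney 3 (adjusted p = 0.0474).

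The other type 5-like members, neighbours on scaffold 435 and 59.9% identical, were near 0 in heart and liver. Only GOAT_ENSBTAP00000021694 had a level in kidney. GOAT_ENSBTAP00000021694 had 0, 0.035 and 0.036 FPKM in heart, was listed at 0 in the 3 liver libraries, and had 0.413, 1.73 and 2.13 FPKM in kidney, with number 1 again the lowest. It exceeded 0.5 FPKM in 2 libraries only and was not tested. GOAT_ENSP00000341942 did not exceed 0.035 FPKM, a value of heart, and was listed at 0 in the 3 kidney libraries. The unclassed GOAT_ENSP00000311336 had 0.918, 0.685 and 0.282 FPKM in heart, 0.493, 0.310 and 0.368 FPKM in liver, and 1.09, 0.459 and 0.541 FPKM in kidney. Its tissues overlapped, and no difference was called.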

How the data were processed

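Strand-specific messenger RNA libraries of goat heart, liver and kidney (3 each) were analysed, with groups and numbers from the sample titles. According to the study's methods, the authors mapped reads with TopHat to CHIR_1.0 and quantified them with Cufflinks (2.2.1 per the labels, which list only the cattle build UMD3.1). The goat table the authors deposited held log2(FPKM + 1) for each model and library, from which FPKM was recovered. FPKM is relative, so very abundant transcripts lower all others. Columns were matched to samples by name, except in goat heart, where tissue, number and prefix were matched to the titles. Cattle and sheep tables were not used, since protein sequences were given for goat alone. Scaffold positions are those of the deposited goat protein file, which states no build. Its last record is cut off, and 3915 of 22131 goat models had no protein, so members may be missing. RefSeq names matched no goat model, and no protein sequence is printed. Depth is not given in the sources used here, so no counting interval is given.

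The models above 0.5 FPKM in at least 3 of 9 libraries entered a limma fit (version 3.58.1 under R 4.3.3) of log2(FPKM + 1), pseudocount 1, with tissue means, a trended eBayes step and Benjamini-Hochberg adjustment over all 13634 models within a contrast at 0.05. Folds are ratios of mean FPKM, and log2 differences of FPKM + 1 are too small for models of low level. In a simulation over 13634 models, 200 were given a log2 difference of 2 between heart and both other tissues. The fit called 82% of these in heart minus liver and 83% in heart minus kidney. Of its calls, 7.34% and 4.05% were false. The simulated noise was independent between libraries and few models changed, unlike in these data, so these shares do not carry over to them. Hydrophobic stretches are windows of 19 residues with a mean Kyte-Doolittle value of at least 1.6. Identities came from BLAST 2.17.0, and Python 3.11.15 was used.

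Deviations from tissue means of same-numbered libraries correlated in each of the 9 pairs, at r = 0.19 to 0.50 over 9641 genes, against -0.47 to 0.15 for other numbers. The study's methods took tissues from the same animals, so the numbers may pair the libraries by animal, which was not tested. The main fit did not use this pairing. With the block, 56.5%, 69.3% and 70.9% of all models were called in heart minus liver, heart minus kidney and liver minus kidney. The p-values measure the spread between these libraries. Alternatives were median ratio, equal sum and quantile scaling, a pseudocount of 0.1, no filter, the study's filter, a minimum log2 difference of 1, the replicate block and leaving out each library. Median ratio scaling with the block was added after the data were seen. Named members were, by rule, up to 3 per subfamily with the highest tissue mean, up to 4 per direction and contrast with the largest called difference, and those beside the filter. The remaining 7 were named after their values were seen, to account for every member. Members and lists were chosen with earlier results of these data known.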

Additional observations from a re-analysis of the deposited data

How the results depend on the processing

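Counts of called members stayed within 1.5 times of those reported under each alternative, except that higher in liver than heart fell from 7 to 4 members with a minimum log2 difference of 1, higher in liver than kidney rose from 3 to 5 under median ratio scaling and to 7 with median ratio scaling and the block, and higher in kidney than liver fell from 12 to 7 under both median ratio and quantile scaling. Of all 13634 models, those higher in liver than heart fell from 2673 to 2007 with that minimum. Those higher in liver than kidney rose from 1825 to 3420 under median ratio scaling and 3737 with the block added. Those higher in kidney than liver fell from 7035 to 3703 under median ratio and 4198 under quantile scaling. The added scaling is the only one chosen after the data were seen, and the cause of these changes was not tested. Leaving out each library gave 9 to 14 called members in heart minus liver, 13 to 16 in heart minus kidney and 12 to 14 in liver minus kidney. The shares called over all models were then 40.8% to 53.5%, 54.6% to 68.1% and 55.7% to 66.0%. With the replicate block the counts were 14, 17 and 15, beside 56.5%, 69.3% and 70.9% of all models. On the deposited scale the block changed no call of a tested member other than GOAT_ENSBTAP00000009383 in heart minus liver and GOAT_ENSBTAP00000017579 in heart minus kidney. With median ratio scaling the block added 6 calls, given with the members. Under median ratio scaling 57 of 63 differences kept their sign, and the 6 that turned were uncalled on the deposited scale. They include liver minus kidney of GOAT_ENSBTAP00000017579 (-0.55 to 0.25) and of GOAT_ENSP00000311336 (-0.27 to 0.0048) and heart minus kidney of the latter (-0.06 to 0.17). Liver minus kidney of GOAT_ENSBTAP00000001838 was 0.71 under median ratio scaling, with or without the block, 0.29 under quantile scaling and -0.29 to 0.21 with a library left out. For GOAT_ENSBTAP00000013169 it was 0.72, 0.058 and -0.26 to 0.036, and for GOAT_ENSBTAP00000042566 it was 0.65, 0.67 and -0.31 to 0.040. For GOAT_ENSP00000332756 it was -0.23 to 0.47 with a library left out. Heart minus kidney of goat_GLEAN_10008815 was -0.32 under equal sum scaling and -0.16 to 0.22 with a library left out. At low levels a pseudocount of 0.1 gave larger differences, such as -3.93 and -4.81 for GOAT_ENSBTAP00000019704 against heart and liver. Without counts, no depth limit could be set.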

Other observations

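The model with the motif and a copy suffix, GOAT_ENSBTAP00000013951-D2, lay 8128 bp from the Na,K/H,K-like GOAT_ENSP00000357060 on scaffold 315 and was 87.8% identical to GOAT_ENSBTAP00000013169. It had 2.43, 2.10 and 2.57 FPKM in heart, 0.078, 0.053 and 0.020 FPKM in liver, and 1.43, 2.40 and 2.81 FPKM in kidney. Liver was lowest without overlap, at a log2 difference of 1.68 against heart (limma, adjusted p = 5.93e-05) and -1.59 against kidney (adjusted p = 7.78e-05), whereas liver and kidney overlapped in GOAT_ENSBTAP00000013169.

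The copper-type model GOAT_ENSP00000355170, whose protein had 1510 residues, had 1.46, 1.83 and 1.84 FPKM in heart, 1.40, 2.56 and 2.47 FPKM in liver, and 7.14, 6.47 and 6.90 FPKM in kidney. Kidney exceeded heart at -1.53 (adjusted p = 1.21e-04) and liver at -1.34 (adjusted p = 2.76e-04). The latter was -0.70 (adjusted p = 0.00842) under median ratio scaling. Copper pumps deliver copper to enzymes and remove its excess.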
